A study of Mus musculus with 12 samples.

Results

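The 92 protein-coding genes of the table that are named as proteins of the cytosolic ribosome are described here. They were chosen by symbol (Rpl or Rps followed by a digit, Rplp0, Rplp1, Rplp2 and Rpsa, without the Rps6k kinases) and are 92 of the 27022 genes listed, of which 16500 are protein-coding. By name, 43 encode proteins of the large subunit, 3 the acidic stalk of that subunit and 31 the small subunit, and these 77 are called core genes. A further 8 are paralogs of a core gene (Rpl3l, Rpl7l1, Rpl10l, Rpl22l1, Rpl36al, Rpl39l, Rps27l and Rps27rt), and 6 carry a pseudogene-style name but are annotated as protein-coding (Rpl10-ps3, Rpl36-ps4, Rpl36a-ps1, Rpl9-ps1, Rpl9-ps6 and Rps12-ps3). The remaining gene, Rps19bp1, encodes a protein that binds a ribosomal protein and is not one itself. RNA came from the liver of 6 female SJL/J mice aged 11 weeks, of which 3 had been fed an AIN-93G control diet with 50 ppm iron and 3 an AIN-93G diet with 2% carbonyl iron from 6 weeks of age (iron-loaded). All mice were fasted and perfused before the liver was taken. Each diet was given to 1 cage, so diet and cage cannot be told apart. Each RNA gave 1 Trad-KAPA library, with reads from the whole mRNA, and 1 3’-LEXO library, with reads from near its 3′ end, so there were 12 libraries.

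Each ribosome is built from ribosomal RNA and 1 copy of most of these proteins, and a growing cell makes them in matched amounts. Their mRNAs are short and abundant, and most begin with a run of pyrimidines, the terminal oligopyrimidine (TOP) tract, through which mTOR signalling controls their translation. Because the mRNAs are abundant in the germ line, they have been copied back into the mammalian genome many times, mostly as processed pseudogenes without introns. A short read that matches both a gene and such a copy has no unique place, and the deposited counts hold only reads placed uniquely in a gene's exons.

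The copies were looked for first, in the annotated transcripts of GENCODE M21 (GRCm38). Of the 92 members, 87 had at least 1 stretch of 50 bases, the length of the reads, that occurs exactly in a transcript of another gene. In 54 members more than 50% of the stretches had such a copy, and in 8 members (Rpl5, Rpl9, Rpl10, Rpl21, Rpl36a, Rps12, Rps12-ps3 and Rps27) every stretch in the last 300 bases did. Rpl3l, Rpl39l, Rpl36-ps4 and Rps19bp1 were among those without any copied stretch. The median member had a copy for 56.1% of the stretches of its transcript and for 90.5% of those in its coding sequence, and shared stretches with 8 pseudogenes. Rpl7a, a protein of the large subunit, shared stretches with 120 pseudogenes, the most of any member. In all, 1107 annotated pseudogenes shared a stretch with a member, and 873 of them were in the count table. Copies that are not annotated as transcripts, and bases that differ between SJL/J and the reference, were not examined.

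The following coding windows show how close the copies are. Each pair gives 30 bases of a member, 5′ to 3′ on its coding strand, and the same window of its copy, with the bases that differ in capitals. For the pairs with differences, the coding window with the most differing bases is shown. Only windows without a gap and within 1 exon of both gene and copy were searched. Untranslated bases, where a copy may differ more, were not. Positions are counted from 1 at the first base of the start codon. Rplp1 encodes a stalk protein, and Gm11942 is the pseudogene with the most reads in 3’-LEXO.
Rplp1 (chr9:61913411-61913440, minus strand): gctggtggtgctgctcCAtccactgcCgcC
Gm11942 (chr4:32965116-32965145, plus strand): gctggtggtgctgctcTGtccactgcTgcT
The differences are C245T, A246G, C255T and C258T. They are 4 of the 9 in 345 aligned coding bases, which were 97.4% identical. Rps7 encodes a small subunit protein, and Gm6472 is the pseudogene with the most reads in Trad-KAPA.
Rps7 (chr12:28635607-28635636, minus strand): aagatcgTgaagcccaatggcgagaagccG
Gm6472 (chrX:152910073-152910102, minus strand): aagatcgGgaagcccaatggcgagaagccA
These are T26G and G48A, 2 of 3 differences in 585 coding bases (99.5% identity). Rpl10, a large subunit protein near the peptidyl transferase centre, was 98.1% identical to the 313 aligned bases of Gm48690.
Rpl10 (chrX:74272978-74273007, plus strand): gctgagaagcgGctcatTcctgatggctgT
Gm48690 (chr13:62385330-62385359, plus strand): gctgagaagcgCctcatCcctgatggctgG
Here the differences are G567C, T573C and T585G. Rps27, a zinc-finger protein of the small subunit, and its intronless paralog Rps27rt had the same 255 coding bases, so no coding window separates them.
Rps27 (chr3:90213272-90213301, minus strand): ctcgcaaaggatctccttcatccctctcca
Rps27rt (chr9:114982672-114982701, minus strand): ctcgcaaaggatctccttcatccctctcca
Rpl10 and Rpl10-ps3 likewise had 0 differences in 645 coding bases, and Rps12 and Rps12-ps3 had 0 in 399.

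**Figure D1:**
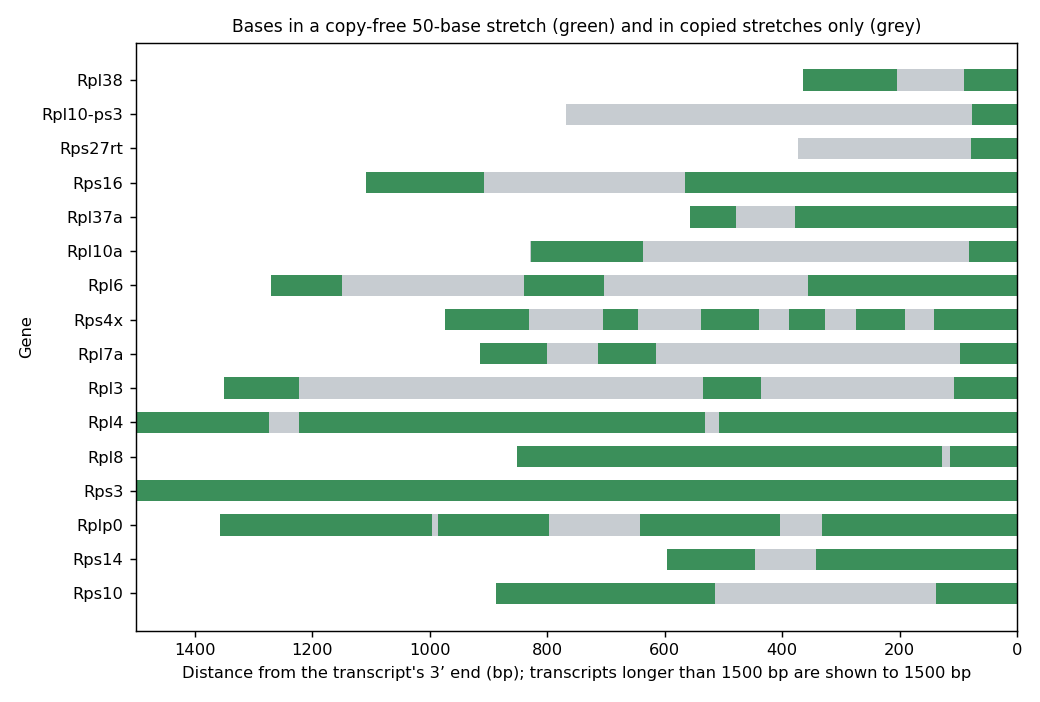
Each bar is the representative transcript of 1 of 16 members with the largest and smallest kit difference or the highest level, drawn by distance from its 3’ end in bp. Green marks bases inside at least 1 copy-free 50-base stretch and grey marks bases covered by copied stretches only. Rps3 is green throughout, whereas Rpl10-ps3 and Rps27rt are green only in their last 77 and 78 bases.

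Together the members held between 0.179% and 0.352% of all counts with Trad-KAPA and between 0.430% and 0.881% with 3’-LEXO. In control mice 1, 2 and 3 the share was 0.195%, 0.200% and 0.179% with Trad-KAPA and 0.480%, 0.500% and 0.430% with 3’-LEXO. In iron-loaded mice 1, 2 and 3 it was 0.352%, 0.250% and 0.256% with Trad-KAPA and 0.881%, 0.632% and 0.645% with 3’-LEXO. The share was higher in 3’-LEXO in 6 of 6 mice, by a factor of 2.49 ± 0.0475 (SD, n = 6). In both kits the 3 iron-loaded libraries lay above the 3 control libraries, and that of iron-loaded mouse 1 lay above the other two. The mean share was 1.50 times as high in iron-loaded as in control mice with Trad-KAPA and 1.53 times with 3’-LEXO, or 1.32 and 1.36 times without iron-loaded mouse 1. The libraries held between 10724672 and 16553616 counts, and no pair of libraries of a group were alike within counting noise. That the replicates are separate mice is stated by the study.

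**Figure D2:**
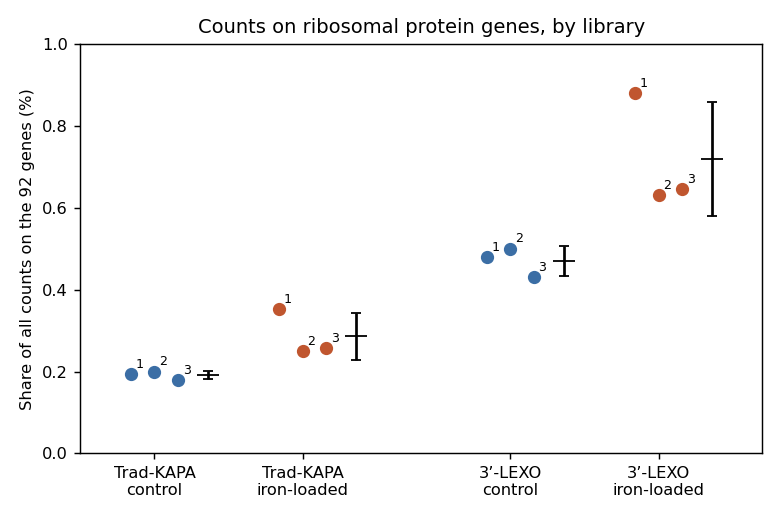
The share of all counts on the 92 genes (percent, linear axis from 0) is shown for each of the 12 libraries, with the mouse number beside each point and bars for the mean ± SD of 3 mice. The iron-loaded libraries lie above the control libraries in each kit, and mouse 1 is the highest iron-loaded library in both.

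Some members had few reads. Levels are given as CPM, the reads of a gene scaled to the total of its library. Since a longer mRNA gives more reads in Trad-KAPA, levels of different genes in that kit are given as CPM per kb of the representative transcript, and those in 3’-LEXO as CPM. The median member had a mean of 6.01 CPM with Trad-KAPA and 9.79 CPM with 3’-LEXO. In Trad-KAPA 22 members had a mean under 1 CPM, in 3’-LEXO 14 did, and 12 were under 1 CPM in both. Rpl10l, Rpl36-ps4, Rpl36a-ps1 and Rpl9-ps1 had at most 3 reads in every library. Rpl19, Rpl24, Rpl29 and Rps6, all core genes, had at most 12 reads in any library and passed the filter on low counts in neither kit. Rps6, which encodes the small subunit protein phosphorylated by S6 kinase, had a mean of 0.470 CPM with Trad-KAPA and 0.124 CPM with 3’-LEXO. Only 6 members reached a mean of 100 CPM with Trad-KAPA and 16 with 3’-LEXO.

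The core genes with the fewest copied coding stretches had the highest median levels. Under 25% of the coding stretches were copied in 4 core genes, among them Rpl4, Rpl8 and Rps3. Their median was 243 CPM per kb with Trad-KAPA (range 101 to 256) and 426 CPM with 3’-LEXO (326 to 594). The 12 core genes with 25% to under 75% copied had medians of 89.6 CPM per kb and 99.2 CPM. The 33 with 75% to under 100% copied had medians of 8.17 CPM per kb and 12.5 CPM, and the 28 with all coding stretches copied had 2.53 CPM per kb and 3.66 CPM. The ranges of neighbouring classes overlapped, and the last class reached 56.9 CPM per kb and 64.5 CPM. Across the 77 core genes, Spearman's rho between the copied share of the coding sequence and the level was -0.73 with Trad-KAPA and -0.66 with 3’-LEXO. With copies allowed to differ at 1 base, rho was -0.60 and -0.59. For the copied share of the whole transcript it was -0.54 and -0.71. For that of the last 300 bases, near which 3’-LEXO reads start, it was weaker, at -0.38 with Trad-KAPA and -0.51 with 3’-LEXO. These values are across genes measured in the same libraries, genes are not independent replicates, and whether the copies set the levels was not tested.

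**Figure D3:**
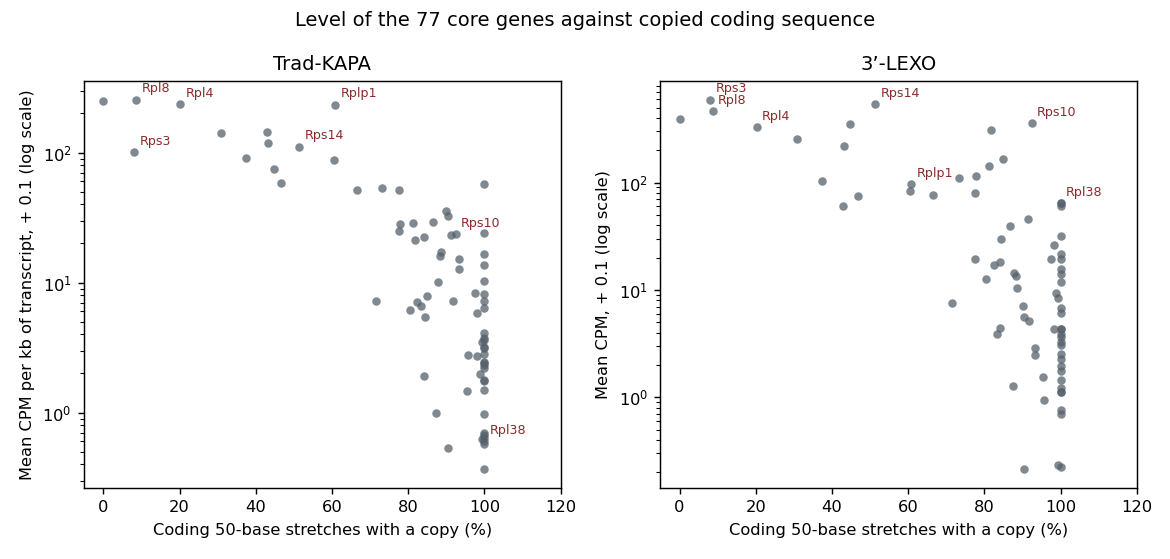
Each point is 1 of the 77 core genes, with the percentage of its coding 50-base stretches that have a copy on the x axis and its level on a log axis (mean CPM per kb over 6 Trad-KAPA libraries on the left, mean CPM over 6 3’-LEXO libraries on the right, each + 0.1). The 4 genes under 25% lie between 101 and 256 CPM per kb and between 326 and 594 CPM, and the 28 genes at 100% have medians of 2.53 CPM per kb and 3.66 CPM.

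Rps3, a small subunit protein at the mRNA entry, was the highest in 3’-LEXO, at a mean of 594 ± 123 CPM (SD over the 6 mice of both diets), followed by Rps14 at 538 ± 138 CPM and Rpl8 at 462 ± 116 CPM. Neighbours in this order differed by less than their SDs. Rps10, also among the highest, was at 356 ± 63.3 CPM. Rpl4 had the highest CPM in Trad-KAPA, at 362 ± 107, ahead of Rpl8, Rps3 and Rplp0, a stalk protein at 119 ± 37.1 CPM. Per kb of transcript it was at 235 CPM, beside Rpl8 (256 CPM per kb) and Rplp1 (234 CPM per kb).

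The kit difference was tested with edgeR on all 12 libraries, as 3’-LEXO minus Trad-KAPA. Of 80 members tested, 54 were higher and 17 lower in 3’-LEXO, where over all 14384 genes tested 76.5% were called, 38.8% as higher and 37.6% as lower. With a log2 difference of at least 1 as well, 47 members were higher and 11 lower, against 22.8% and 20.9% of all genes. The median log2 difference was 1.14 over the members and 0.02 over all genes, but -0.34 over the members when Trad-KAPA counts were taken per kb of the shortest coding transcript. By class, 24 of 40 large subunit genes were higher and 12 lower, 23 of 30 small subunit genes were higher and 2 lower, and of the 3 stalk genes Rplp2 was higher and Rplp0 and Rplp1 were lower. Of the 76 mitochondrial ribosomal protein genes tested, which encode the ribosome of another compartment, 60 were higher and 6 lower, with a median of 0.99.

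These directions varied with transcript length across the core genes, and whether length sets them was not tested. Among the 25 shortest core genes (345 to 612 bp) 21 were higher in 3’-LEXO and 2 lower, among the next 24 (614 to 937 bp) 16 and 5, and among the 24 longest (946 to 5130 bp) 11 and 9. Their medians were 1.84, 1.05 and 0.20, and rho between length and the log2 difference was -0.38 over 73 core genes. When Trad-KAPA counts were taken per kb, the member median lay below that of all genes: 0.54 against 0.71 with merged exons, 0.20 against 0.54 with the longest transcript, and -0.34 against 0.34 with the shortest coding transcript. With the last of these, 22 members (27.5%) were higher and 35 (43.8%) lower in 3’-LEXO, where 77.2% of 12558 genes were called, 48.4% as higher.

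The members with the largest differences kept their direction under all 3 lengths. Rpl38, a large subunit protein known for its role in Hox mRNA translation, was at 0.24, 0.13 and 0.22 CPM in control and 0.21, 0.00 and 0.29 CPM in iron-loaded mice in Trad-KAPA. In 3’-LEXO it was at 25.4, 59.7 and 40.9 CPM and at 141, 38.3 and 81.1 CPM. Every 3’-LEXO library lay above every Trad-KAPA library, and the log2 difference was 8.31 (SE 0.46, edgeR adjusted p = 1.29e-09). It was 5.79 for Rps16 (SE 0.37, adjusted p = 6.45e-09) and 4.74 for Rpl37a (SE 0.10, adjusted p = 1.05e-12), proteins of the small and large subunit. Rps10 was lower in every Trad-KAPA library (15.5 to 28.8 CPM) than in any 3’-LEXO library (267 to 435 CPM), with a difference of 4.12.

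In the other direction, Rpl10a, the large subunit protein of the L1 stalk, was at 4.71, 7.10 and 4.92 CPM and at 19.1, 8.20 and 6.83 CPM in Trad-KAPA. In 3’-LEXO it was at 0.43, 0.21 and 0.14 CPM and at 1.38, 0.75 and 0.64 CPM. The groups did not overlap, and the difference was -3.97 (SE 0.33, adjusted p = 9.55e-08). It was -2.73 for Rpl6, -2.46 for Rps4x, the X-linked small subunit protein, -2.31 for Rpl7a and -2.28 for Rpl3, a protein of the peptidyl transferase region. In the last 300 bases, 86.9% of the stretches of Rpl10a and 80.5% of those of Rpl7a had a copy, but for Rpl6 the share was 0%, and over 73 core genes rho between that share and the kit difference was -0.11.

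**Figure D4:**
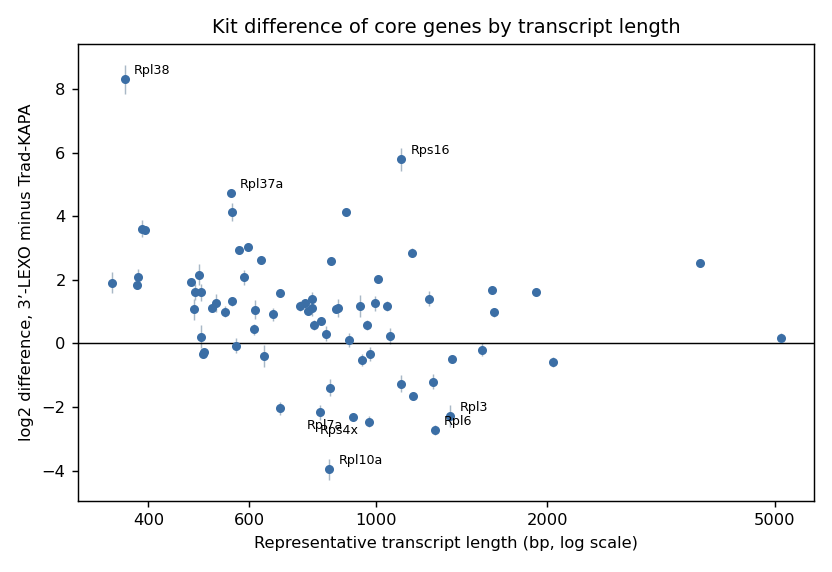
The log2 difference between the kits (y axis, 3’-LEXO minus Trad-KAPA, bars are standard errors) on counts not divided by length is plotted against the length of the representative transcript (x axis, bp, log scale) for 73 core genes. The medians of the shortest, middle and longest genes are 1.84, 1.05 and 0.20, and Rpl38 and Rpl10a are the extremes.

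Intronless copies and their parent genes differed between the kits in opposite ways in one pair. Rpl10-ps3 (chr9:50344201-50344968, 1 exon) was at 0, 0 and 0 CPM in control and 0.07, 0.07 and 0 CPM in iron-loaded mice with Trad-KAPA but at 5.36, 6.87 and 4.68 CPM and 6.44, 9.98 and 4.36 CPM with 3’-LEXO (log2 difference 8.13, SE 0.46, adjusted p = 1.08e-08). Its parent Rpl10 (chrX:74270812-74273135) was higher in Trad-KAPA, at a mean of 6.47 CPM against 1.84 CPM (log2 difference -2.17). As printed above, their coding bases are the same. The copy-free stretches of Rpl10-ps3 lie in its last 77 bases, whereas in Rpl10 none lies in the last 300. Rps27rt (chr9:114982366-114982739) had a mean of 0.064 CPM with Trad-KAPA and 6.54 CPM with 3’-LEXO (log2 difference 6.70), and Rps27 (chr3:90212522-90213651) 0.79 and 2.97 CPM (log2 difference 1.90, or -0.41 per kb of the shortest coding transcript). Since only reads from stretches that differ within such pairs can be placed uniquely, their single levels are uncertain.

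Of the other paralogs, Rps27l, a p53-responsive relative of Rps27, was at a mean of 36.8 CPM with Trad-KAPA and 211 CPM with 3’-LEXO (log2 difference 2.52). Rpl22l1, a relative of Rpl22 with 71.2% identical aligned coding bases, was at 11.96 and 84.5 CPM (2.85), beside 67.5 and 256 CPM for Rpl22 (1.92). Rpl7l1 was the only paralog tested that was lower in 3’-LEXO, at 28.7 and 19.8 CPM (-0.53). Rpl36al was at 1.51 and 3.37 CPM (1.16), beside 1.02 and 3.14 CPM for Rpl36a (1.62), and this kit difference of both turned to below 0 per kb of the shortest coding transcript. Rpl39l and Rpl3l had at most 4 reads in any library, beside means of 13.7 and 18.2 CPM for Rpl39. Rps19bp1 was at 8.30 and 24.1 CPM (1.55), and Rps19 at 4.66 and 12.5 CPM (1.39, or -0.0036 per kb of the shortest coding transcript).

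The pseudogenes that share a stretch with a member summed to a mean of 115 CPM with Trad-KAPA and 963 CPM with 3’-LEXO, or between 4.47% and 5.07% and between 15.3% and 17.6% of the member sum of the same library. Gm11942 (chr4:32964888-32965232), which was at 5.20 to 9.43 CPM with Trad-KAPA and 265 to 540 CPM with 3’-LEXO, made the largest part of the 3’-LEXO sum, whose mean was 542 CPM without it. Its kit difference was 5.80 (SE 0.12, adjusted p = 1.05e-12), and in 3’-LEXO its mean of 421 CPM exceeded the 96.1 CPM of Rplp1. The next pseudogenes in 3’-LEXO were Gm5805, a copy of Rps14, at 18.5 CPM, Gm19739, a copy of Rpl39, at 18.4 CPM, Gm48690 at 17.03 CPM and Rps13-ps2 at 15.3 CPM, and each had at most 1.498 CPM on average in Trad-KAPA. In Trad-KAPA, Gm6472 was the highest at 15.2 CPM, and others among the highest were Gm15772, a copy of Rpl26, at 13.1 CPM, Gm11942 at 7.50 CPM and Rpl14-ps1 at 7.17 CPM. Gm6472 and Gm15772 were lower in 3’-LEXO, by log2 differences of -3.80 and -3.64.

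The diet comparison asks which genes differed between the livers of iron-loaded and control mice, within each kit. In Trad-KAPA 29 of 72 members tested rose and 0 fell, where 17.1% of all 13151 genes tested were called, 8.77% as higher and 8.37% as lower. In 3’-LEXO 11 of 79 rose and 0 fell, where 6.1% of 13301 genes were called, 3.17% as higher and 2.92% as lower. The median log2 change was 0.49 over the members and 0.02 over all genes with Trad-KAPA and 0.68 and 0.01 with 3’-LEXO. At an unadjusted p under 0.05, 0 members were lower in the first kit and 1, Rpl6 (unadjusted p = 0.0460), in the second, and DESeq2 called 0 as lower. The change was above 0 for 69 of 72 members with Trad-KAPA and 76 of 79 with 3’-LEXO, against 51.5% and 51.3% of all genes. The 3 iron-loaded values exceeded the 3 control values in 50 of the 72 members and in 44 of the 79, against 24.7% and 18.5% of all genes. In bulk tissue, a change in the share of a cell type and a change in RNA per cell cannot be told apart.

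The count of calls depended on single libraries, although no member fell when any library was left out. In Trad-KAPA the 29 calls (40.3% of members tested) became 5, 4 and 3 without control mouse 1, 2 or 3 (6.94%, 5.56% and 4.17%), where 4.07%, 3.09% and 4.12% of all genes were called as higher, so without control mouse 3 the member share was that of all genes. They became 14 (19.4%) without iron-loaded mouse 3, where it was 4.54% of all genes. In 3’-LEXO the 11 calls (13.9%) became 1, 2 and 0 without control mouse 1, 2 or 3 (1.27%, 2.53% and 0%), where 1.07%, 0.923% and 0.714% of all genes were called as higher, so the first of these shares was also near that of all genes. They became 20 (25.3%) without iron-loaded mouse 2 and 4 (4.94%) without iron-loaded mouse 3, against 3.07% and 1.39% of all genes. Without control mouse 3 in 3’-LEXO, 37 of 79 members (46.8%) and 19.9% of all genes had an unadjusted p under 0.05. Without iron-loaded mouse 1 there were 28 and 9 calls (38.9% and 11.2%, against 10.7% and 3.3% of all genes), but the member medians were 0.34 and 0.41. This mouse had the highest of the 6 values for 66 of 72 members with Trad-KAPA and 59 of 79 with 3’-LEXO. The share of all genes for which it was highest was not worked out. Across genes in general it also lay apart from iron-loaded mice 2 and 3. The chi-square per degree of freedom against them was 53.5 and 49.8 with Trad-KAPA and 59.8 and 49.5 with 3’-LEXO. Between mice 2 and 3 it was 5.98 and 5.97.

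**Figure D5:**
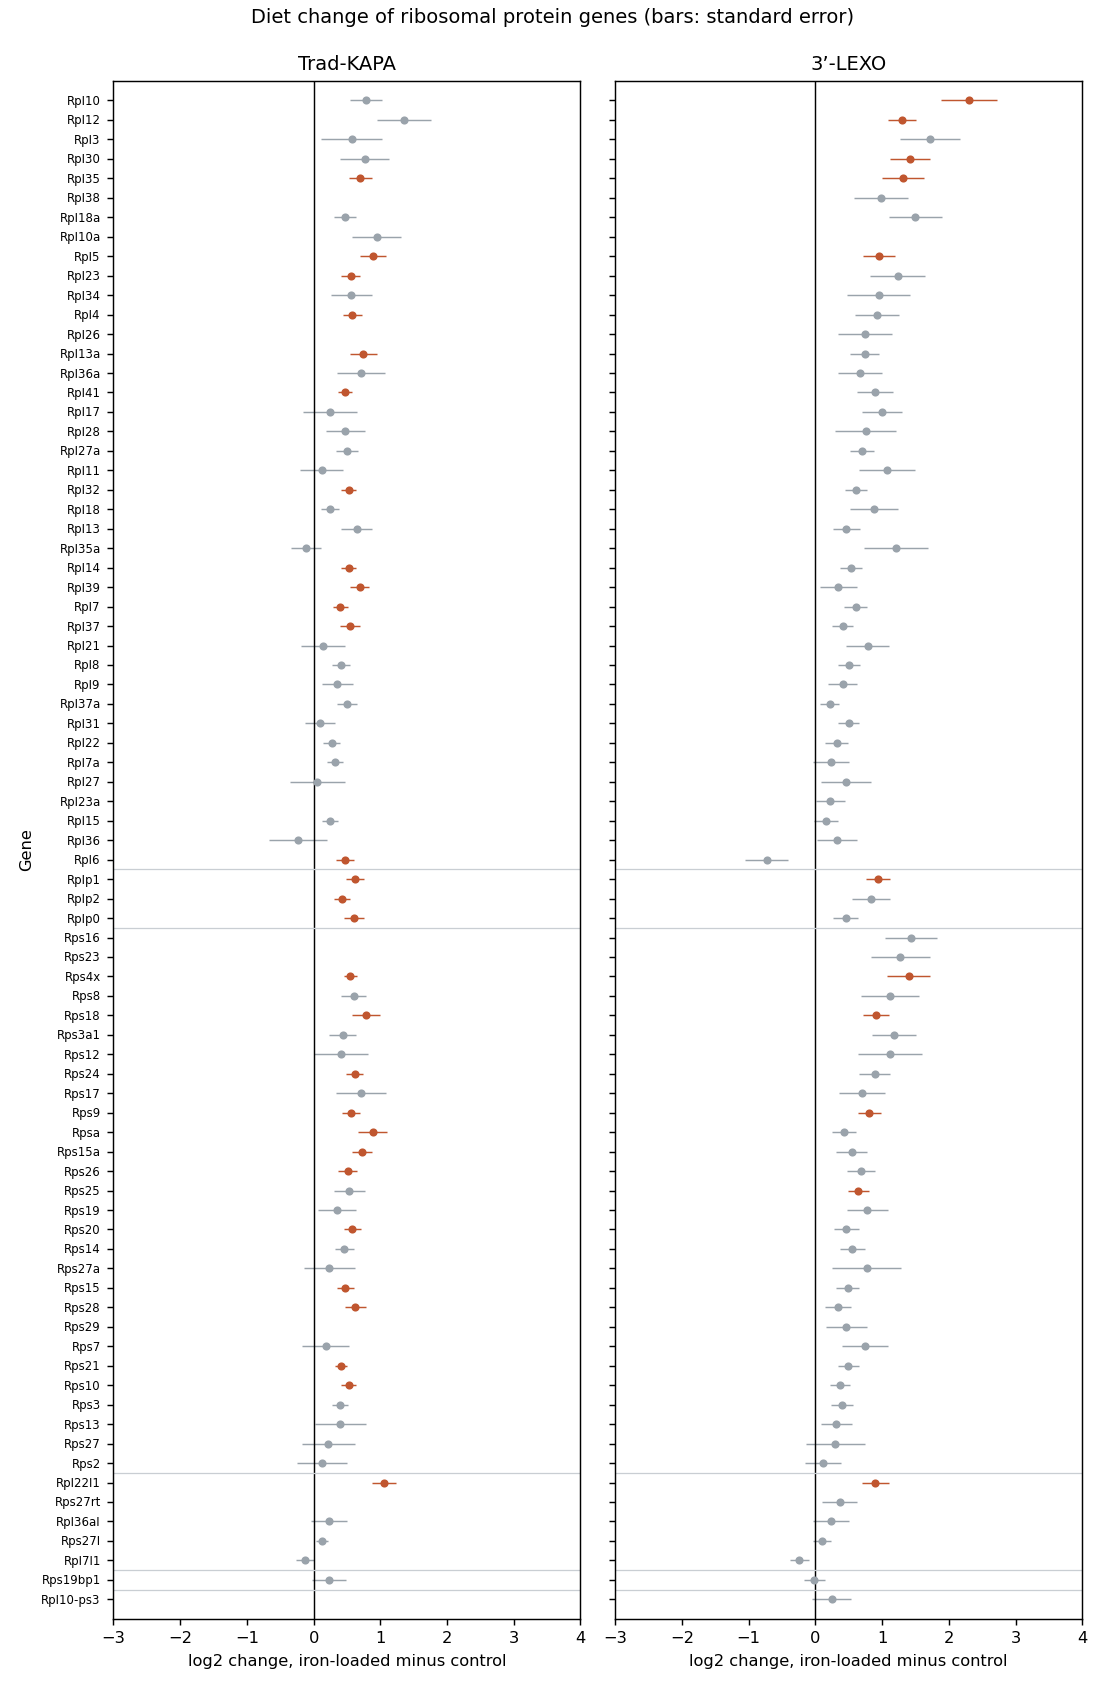
Each row is a member tested in at least 1 kit and reported here, grouped from the top as large subunit, stalk, small subunit, paralogs, Rps19bp1 and Rpl10-ps3, and each point is the edgeR log2 change (iron-loaded minus control) with its standard error in Trad-KAPA (left) and 3’-LEXO (right). Orange points passed an adjusted p of 0.05, 28 of those drawn on the left and 11 on the right, all of them above 0.

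Of the large subunit genes, 12 of 37 rose with Trad-KAPA and 5 of 39 with 3’-LEXO. Rpl5, which carries the 5S ribosomal RNA and binds Mdm2, was at 4.11, 4.22 and 4.63 CPM in control and 10.3, 6.49 and 8.55 CPM in iron-loaded mice with Trad-KAPA and at 2.14, 2.93 and 3.403 CPM and 6.06, 5.69 and 5.36 CPM with 3’-LEXO. The groups were apart in both kits, and the log2 changes were 0.89 (SE 0.19, adjusted p = 0.0195) and 0.95 (SE 0.24, adjusted p = 0.0491). Rpl35, at the polypeptide exit, rose in both kits, by 0.70 (SE 0.17, adjusted p = 0.0301) and 1.31 (SE 0.32, adjusted p = 0.0421). Rpl13a, known from a complex that represses translation after interferon, rose in Trad-KAPA by 0.75, and its change in 3’-LEXO was 0.74 (adjusted p = 0.0680). Among large subunit genes in 3’-LEXO the largest rises were those of Rpl10 at 2.30 (SE 0.42), Rpl30 at 1.42 (SE 0.29), Rpl35 and Rpl12 at 1.30 (SE 0.21). Rpl10 rested on few reads there, at 0.43, 0.72 and 0.64 CPM in control and 4.75, 2.14 and 2.36 CPM in iron-loaded mice. In Trad-KAPA its change was 0.78 (adjusted p = 0.0590). The other large subunit genes that rose in Trad-KAPA were Rpl4, Rpl6, Rpl7, Rpl14, Rpl23, Rpl32, Rpl37, Rpl39 and Rpl41, by 0.40 to 0.69. Rpl12 changed by 1.35 in Trad-KAPA (adjusted p = 0.0508), where mouse 1 was at 11.4 CPM and mice 2 and 3 at 3.28 and 5.32 CPM.

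All 3 stalk genes rose in Trad-KAPA, Rplp1 by 0.62 (SE 0.13), Rplp0 by 0.61 (SE 0.14) and Rplp2 by 0.42 (SE 0.12). Rplp1, which with Rplp2 recruits the elongation factors, was at 89.5, 94.8 and 83.5 CPM in control and 179, 123 and 132 CPM in iron-loaded mice. In 3’-LEXO it was at 60.3, 70.1 and 61.8 CPM and 163, 99.8 and 122 CPM, a rise of 0.94 (SE 0.18, adjusted p = 0.0175). The changes of Rplp0 and Rplp2 in 3’-LEXO were 0.46 (adjusted p = 0.171) and 0.84 (adjusted p = 0.102). The pseudogene Gm11942, near-identical to Rplp1, changed by 0.39 (adjusted p = 0.112) and 0.55 (adjusted p = 0.0881).

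Of the small subunit genes, 13 of 27 rose with Trad-KAPA and 4 of 30 with 3’-LEXO. Rps9, which takes part in decoding accuracy, was at 74.0, 74.5 and 60.9 CPM in control and 131, 94.0 and 100.1 CPM in iron-loaded mice in Trad-KAPA (0.56, SE 0.13, adjusted p = 0.0231). In 3’-LEXO it was at 157, 142 and 168 CPM and 333, 230 and 293 CPM (0.81, SE 0.17, adjusted p = 0.0282). Rps4x was at 27.9, 29.6 and 24.7 CPM and 46.3, 39.1 and 41.1 CPM in Trad-KAPA (0.55, adjusted p = 0.0108). In 3’-LEXO it was at 2.64, 3.79 and 4.61 CPM and 14.6, 6.34 and 9.54 CPM (1.40, adjusted p = 0.0352). Rps18, a protein of the head of the small subunit, rose by 0.78 and 0.91, also with the groups apart in both kits. Rpsa, the laminin receptor precursor, rose by 0.89 with Trad-KAPA (adjusted p = 0.0277) and changed by 0.43 with 3’-LEXO (adjusted p = 0.174). Other small subunit genes that rose in Trad-KAPA were Rps10, Rps15, Rps15a, Rps20, Rps21, Rps24, Rps26 and Rps28, by 0.42 to 0.72. Rps25 rose in 3’-LEXO by 0.64 (SE 0.15), and its change in the other kit was 0.54 (adjusted p = 0.135). The 7 members that rose in both kits were Rpl5, Rpl35, Rplp1, Rps4x, Rps9, Rps18 and Rpl22l1, or 24.1% of the Trad-KAPA calls and 63.6% of the 3’-LEXO calls. The overlap of calls over all genes was not worked out, so these shares cannot be set against it.

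Of the paralogs, Rpl22l1 rose in both kits. It was at 7.31, 8.24 and 6.94 CPM in control and 20.99, 15.0 and 13.3 CPM in iron-loaded mice with Trad-KAPA and at 52.1, 76.6 and 44.3 CPM and 138, 100.05 and 96.3 CPM with 3’-LEXO. It rose by 1.06 (SE 0.17, adjusted p = 0.00860) and 0.90 (SE 0.20, adjusted p = 0.0355), and was the only member to rise by over 1 log2 unit in Trad-KAPA. Its core gene Rpl22 changed by 0.27 (adjusted p = 0.162) and 0.32 (adjusted p = 0.285). The other paralogs tested gave changes from -0.13 to 0.23 with Trad-KAPA (adjusted p from 0.387 to 0.580) and from -0.24 to 0.36 with 3’-LEXO (adjusted p from 0.315 to 0.707). Rps4l, a relative of Rps4x that is annotated as a pseudogene and so is not among the 92, fell in Trad-KAPA by 0.70 on the log2 scale (SE 0.15, adjusted p = 0.0201), and its change in 3’-LEXO was -0.70 (adjusted p = 0.0933). Rps19bp1 gave 0.24 (adjusted p = 0.547) and -0.02 (adjusted p = 0.962). Whether any of these differs from the core genes was not tested.

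For the difference between the kits in the diet change, edgeR called 0 of the 80 members and 0 of all 14384 genes. At an unadjusted p under 0.05 there were 3 members (3.75%), Rpl6, Rpl10 and Rps4x, against 2.79% of all genes. Rpl6 changed by 0.47 in Trad-KAPA, where it rose (adjusted p = 0.0472), and by -0.73 in 3’-LEXO (adjusted p = 0.192), a difference of -1.20 (unadjusted p = 0.00187). DESeq2 called 0 members as well, with 5 of 92 (5.43%) at an unadjusted p under 0.05, against 1.44% of all genes. With the mouse as a block, which pairs the libraries of the same RNA, 0 members and 5 genes of all were called and 10 members (12.5%) had an unadjusted p under 0.05, against 7.13% of all genes.

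Starts of members were compared with the TOP tract in RefSeq promoters (GRCm38.p6), which were found for 66 members with 78 starts. A C at the annotated start followed by at least 4 bases that are each C or T, on the gene's strand only, was present at 14 of these starts (17.9%) and at 2.51% of all 32851 starts. For the 67 starts of core genes it was 19.4%, and for mitochondrial ribosomal protein genes 0 of 75. Allowing the tract to begin within 5 bases of the start gave 41.0% of member starts and 18.3% of all starts. Windows from 10 bases before to 20 bases from the start are shown for 4 members that rose in Trad-KAPA, with the tract in capitals.
Rps18 (chr17:33955646-33955675, minus strand): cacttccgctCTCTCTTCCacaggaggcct
Rpl35 (chr2:39005112-39005141, minus strand): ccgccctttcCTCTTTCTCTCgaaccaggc
Rps15a (chr7:118116128-118116157, minus strand): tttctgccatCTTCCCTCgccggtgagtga
Rps10 (chr17:27635225-27635254, minus strand): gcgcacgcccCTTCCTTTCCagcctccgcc
Of the 13 core genes with a tract at a start, 7 of 11 tested rose with Trad-KAPA and 2 of 12 with 3’-LEXO, with medians of 0.48 and 0.65. Of all members, 29 of 72 and 11 of 79 rose, with medians of 0.49 and 0.68. Of all genes tested, 8.77% and 3.17% were called as higher. Rpl15, Rpl28, Rpl35a and Rps27 also had a tract and were called in neither kit. Whether the tract relates to the diet change was not tested. A tract is a match of letters, and its absence from a window says nothing about the mRNA's true start.

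Other genes of ribosome production were taken from lists. Of 50 ribosome assembly genes, which build the subunits in the nucleolus, 9 rose with Trad-KAPA and 2 with 3’-LEXO, and 0 fell. Of all genes tested, 8.77% and 3.17% were called as higher, so the share in 3’-LEXO was near that of all genes. The medians of the list were 0.52 and 0.48. Ncl, encoding nucleolin, rose by 1.07 (SE 0.16) and 1.06 (SE 0.17), and Gnl3, encoding nucleostemin, by 1.18 (SE 0.21) and 1.32 (SE 0.25). Rrn3, a factor of RNA polymerase I, rose by 0.66 with Trad-KAPA and Wdr43 by 0.87, and their changes with 3’-LEXO were 0.53 and 0.68 (adjusted p = 0.0659 and 0.0780). The summed level of this list was 832 to 918 CPM in control and 1897, 1117 and 1147 CPM in iron-loaded mice 1, 2 and 3 in Trad-KAPA. Of 14 other genes with known TOP mRNAs, translation factors among them, only Nap1l1 and Npm1 rose in Trad-KAPA, by 0.57 and 0.85. Neither encodes a translation factor. Their changes in 3’-LEXO were 0.56 (adjusted p = 0.0545) and 0.84 (adjusted p = 0.0756). The medians of this list were 0.29 and 0.41. Rack1, which encodes a further ribosomal component, rose in Trad-KAPA by 0.59. The mitochondrial ribosomal protein genes gave medians of -0.03 and 0.03. In each kit 0 of 76 were higher and 2 lower, Mrpl4 and Mrpl49 with Trad-KAPA and Mrpl49 and Mrps25 with 3’-LEXO. Among all genes tested, 8.37% and 2.92% were called as lower, so these falls were no more frequent than over all genes.

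Some markers of liver cell types were called for diet as well. Among all genes tested, 8.77% were called as higher and 8.37% as lower with Trad-KAPA, and 3.17% and 2.92% with 3’-LEXO. The summed level of 8 hepatocyte markers was 144951 to 156463 CPM in control and 118819, 152132 and 156724 CPM in iron-loaded mice 1, 2 and 3 with Trad-KAPA and 56158 to 70884 CPM and 46840, 66080 and 64228 CPM with 3’-LEXO. Of these 8 markers 0 were called in Trad-KAPA and only Tat in 3’-LEXO, where it rose by 0.95. The change of Tat in Trad-KAPA was 0.87 (adjusted p = 0.0808). Of 10 Kupffer cell and macrophage markers, Marco, Gpnmb, Trem2 and Vsig4 rose with Trad-KAPA and Marco and Gpnmb with 3’-LEXO. Their sum was 381 to 608 CPM in control and 691 to 753 CPM in iron-loaded mice with Trad-KAPA and 883 to 1157 and 1165 to 1419 CPM with 3’-LEXO. Endothelial markers summed to 385 to 505 and 475 to 576 CPM in Trad-KAPA, where 3 of 8 rose, and to 407 to 500 and 358 to 373 CPM in 3’-LEXO, where 1 rose and 2 fell. In Trad-KAPA 1 of 7 lymphocyte markers (Ptprc) and 1 of 3 cholangiocyte markers (Spp1) rose and 1 of 9 stellate (Des) and 1 of 5 erythroid markers (Slc4a1) fell. In 3’-LEXO Spp1 rose, and 0 lymphocyte, stellate and erythroid markers were called. In control and iron-loaded mice the sums in Trad-KAPA were 18.3 to 29.2 and 31.0 to 36.2 CPM for lymphocyte, 24.0 to 26.6 and 33.8 to 39.7 CPM for cholangiocyte, 280 to 438 and 346 to 381 CPM for stellate and 22.05 to 154 and 16.9 to 29.6 CPM for erythroid markers. In 3’-LEXO they were 10.9 to 18.7 and 16.6 to 22.01, 30.0 to 37.6 and 43.5 to 44.3, 489 to 532 and 435 to 472, and 164 to 1217 and 120 to 209 CPM. Every marker had reads in each kit. The part of these cells in the diet change of the members was not tested.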

How the data were processed

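Counts were analysed for 12 libraries of liver RNA, 3 mice per diet in each kit. The authors sequenced 50-base single-end reads, mapped them with STAR 2.5.3a to GRCm38 and deposited raw counts of reads placed uniquely in the exons of each gene. The counting program, the annotation release and the use of strand are not given in the sources used here. Gene types, lengths and transcripts were taken from GENCODE M21, where 26949 of 27022 identifiers were found.

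The quasi-likelihood test of edgeR 4.0.16, run under R 4.3.3 beside limma 3.58.1, was applied to the counts after filterByExpr and TMM, and p-values had Benjamini-Hochberg adjustment over all genes tested, at 0.05. Diet was tested within each kit, and the kit difference and the interaction in 1 fit of 4 groups. Copies were exact 50-base matches, on either strand, between the representative transcript of a member and transcripts of other genes. The members and lists were chosen with earlier results of these data known. Genes were named by rule: members called in both kits, the 5 largest rises and falls, the 5 largest and smallest kit differences, the 5 highest levels per kit, paralogs with their core genes, the 5 highest pseudogenes per kit, and up to 4 called genes per other list. Other genes were named after their values were seen. Some genes that the rule names are counted in the totals but not reported here.

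Libraries with 1 number come from 1 mouse, since the study made both kits from each RNA. Deviations from group means over 10326 genes correlated for every mouse (r from 0.44 to 0.77). For iron-loaded mice 2 and 3 they also correlated across unlike numbers. Trad-KAPA mouse 2 with 3’-LEXO mouse 3 gave r = 0.59, and Trad-KAPA mouse 3 with 3’-LEXO mouse 2 gave 0.52. These values therefore cannot tell those mice apart. A number does not pair mice across diets. On simulated counts with 200 genes changed by 2-fold, 91.5% were recovered for diet in each kit (13155 and 13283 genes), 44% for the interaction and 100% for the kit. Beyond counting noise every gene had a coefficient of variation of 0.15, and no mouse lay apart. Genes with few reads were not among those changed. Recovery of smaller changes, of genes with few reads, or with a mouse that lies apart was not simulated. Alternatives included DESeq2 1.42.0, other scalings, no filter, equal depth of 10 M reads, 3 lengths, blocks and leaving out each mouse. Sequences of starts are from RefSeq. Python 3.11.15, numpy 2.4.6, pandas 2.3.3 and matplotlib 3.10.9 were used for the other steps.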

Additional observations from a re-analysis of the deposited data

How the results depend on the processing

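No member fell with the diet under any alternative run. In Trad-KAPA 29 members rose (40.3% of those tested, against 8.77% of all genes). They were 34 with DESeq2 (38.6% against 5.07%) and 38 without the filter (43.2% against 6.25%). They were 22 (30.6% against 7.37%) with the replicate number as a replicate block, which pairs no mice across diets. Leaving out 1 library gave from 3 calls (4.17% against 4.12%) to 28 (38.9% against 10.7%). In 3’-LEXO 11 members rose (13.9% against 3.17% of all genes). They were 28 with DESeq2 (30.4% against 2.93%) and 34 without the filter (37.0% against 4.22%). They were 17 with library totals (21.5% against 3.94%) and 4 with the replicate block (5.06% against 1.59%). With 1 library left out they were from 0 (against 0.714% of all genes) to 20 (25.3% against 3.07%). The cause of these changes in count was not tested. Of all genes, library totals shifted the median to 0.085 and 0.071. The median change of the members ranged from 0.34 to 0.58 and from 0.41 to 0.72 with 1 library left out. The kit difference was called for 68 to 73 members with 1 mouse left out, where 71.3% to 77.2% of all genes were called. With the mouse as a block it was called for 73 of 80 members and 82.6% of all genes. With that block the diet difference between the kits was called for 5 genes of all in place of 0, none of them a member. Per kb, the median kit difference of 1.14 was 0.54 with merged exons, 0.20 with the longest transcript and -0.34 with the shortest coding transcript. Of the 71 members called without a length, 3, 4 and 12 were called in the opposite direction with these lengths. Among them was Rpl39 with the longest (-1.40) and the shortest coding transcript (-0.98). With the latter they included Rps9 (-0.51), Rpl13a (-0.56), Rpl36al (-0.49), Rpl13 (-0.51) and Rpl15 (-0.34). Other values fell below 0 without a call, among them Rpl39 with merged exons (-0.42, edgeR adjusted p = 0.0552). Rpl8 did so with the longest transcript (-0.032, adjusted p = 0.803). With the shortest coding transcript so did Rps18 (-0.33), Rps3 (-0.13), Rpl36a (-0.14), Rps19 (-0.0036) and Rps27 (-0.41). Their adjusted p ran from 0.0627 to 0.99. The member share of 0.191% in Trad-KAPA control libraries was 0.202% of protein-coding counts. Without the 10 genes with the most reads it was 0.255%, in place of 0.286% it was 0.378% in iron-loaded Trad-KAPA, and in 3’-LEXO it was 0.563% in place of 0.470% in control libraries. No member was called for the diet difference between the kits under any alternative run. Members with few reads are limited by depth, and copies outside the annotation could not be searched here.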
